A study of Mus musculus with 24 samples.

Results

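The insulin-like growth factor (IGF) axis was followed through 10 genes: the ligands Igf1 and Igf2, the receptors Igf1r and Insr, and the binding proteins Igfbp2, Igfbp3, Igfbp4, Igfbp5, Igfbp6 and Igfbp7. They were chosen by gene name, and all 10 were listed among the 24970 gene symbols of each of 4 expression tables. The tables hold RNA-seq of 24 mouse libraries, and each compares let-7 knockouts with controls. Controls were Sftpc-CreER/+; R26-tdT/+, which joins a tamoxifen-inducible Cre recombinase under the promoter of the surfactant gene Sftpc to a tdTomato reporter. Knockouts carried let7afd-/- in addition. Every mouse of both genotypes received tamoxifen. Alveolar type 2 (AT2) cells, the surfactant-making cells of the alveolus, were sorted 6 days after tamoxifen, and each of the 3 libraries per genotype pooled 3 mice. For whole lungs, 3 libraries of either genotype were taken after 6 days, and 4 of either after booster tamoxifen over 6 months. AT2 organoids had 2 libraries per genotype and were grown for 14 days. The labels used here give no sort markers, ages or strain.

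IGF1 and IGF2 are secreted hormones that activate the receptor tyrosine kinase IGF1R, and IGF2 also activates a splice form of the insulin receptor. Binding proteins hold the ligands outside the cell. They lengthen their life in blood and tissue and keep them from the receptor until proteases such as PAPPA cut the complex. In the lung, IGF1 is known mainly as a product of mesenchymal cells and macrophages, and epithelial cells are among those that respond to it. The let-7 microRNAs pair with sites in 3′ UTRs through their seed, bases 2 to 8, and lower the level of the transcripts that hold them. IGF1R, INSR and the adaptor IRS2 are among their best known targets.

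The mature sequences named by the knockout label are shown to make the seed visible, which is in capitals. They are RefSeq entries on GRCm38.p6, printed 5′ to 3′, and their genes Mirlet7a-1, Mirlet7f-1 and Mirlet7d lie within 2183 bases at chr13:48536078-48538260 on the minus strand.
let-7a-5p: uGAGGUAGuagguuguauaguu
let-7f-5p: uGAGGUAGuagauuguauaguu
let-7d-5p: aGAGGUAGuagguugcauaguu
All 3 share the seed GAGGUAG, and so do microRNAs of 10 further mouse loci outside that cluster, which the label does not name as deleted.

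The letters that pair with this seed were searched on the transcript strand of the longest 3′ UTR of each gene (GENCODE M21, GRCm38): CTACCTCA (8mer), CTACCTC (7mer-m8) and TACCTCA (7mer-A1), where a 7mer within an 8mer was not counted again. An 8mer was found in 3 of the 10 members, Igf1, Igf1r and Insr. Single 7mers were found in Igf2 and Igfbp5, and further 7mers in Igf1r and Insr. The 5 members Igfbp2, Igfbp3, Igfbp4, Igfbp6 and Igfbp7 held none of these letters. One match each of Igf1, Igf1r, Insr, Igf2 and Igfbp5, the 8mer where there is one, is printed to show where the seed letters fall, with the match in capitals.
Igf1 8mer, chr10:87932078-87932105, plus strand: gcaatatgtcatctacCTACCTCAaagg
Igf1r 8mer, chr7:68229109-68229136, plus strand: tttttcaaacatttatCTACCTCActct
Insr 8mer, chr8:3153194-3153221, minus strand: ttcttctcagtacagtCTACCTCAgtgt
Igf2 7mer-A1, chr7:142651447-142651473, minus strand: agggcggctggaggttTACCTCAcccc
Igfbp5 7mer-m8, chr1:72859676-72859702, minus strand: ccttccccaggtcagcCTACCTCcccc
Among 19805 3′ UTRs of at least 50 bases, 3.19% held the 8mer and 15.5% any of the 3 forms. Long UTRs hold these letters more often. Among UTRs of like length the 8mer was in 12.4% for Igf1 (6308 bases), 13.3% for Igf1r (7267 bases) and 9.01% for Insr (4747 bases). Any of the 3 forms was in 28.2% of UTRs of like length for Igf2 (3050 bases) and 39.9% for Igfbp5 (4445 bases). For the 5 members without a match it was 15.7% for Igfbp3 (1435 bases) and 27.3% for Igfbp4 (2813 bases). It was 4.83% for Igfbp2 (312 bases), 2.17% for Igfbp6 (209 bases) and 3.86% for Igfbp7 (240 bases). A match is a description of letters, not a measured site.

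The values were TPM, which are scaled by transcript length and then to a fixed sum per library. Read numbers cannot be had from them, depth is therefore unknown, and 11814 to 14175 genes per library reached 1 TPM. The 3 let-7 genes of the label had 0 TPM in each of the 24 libraries, controls included. Mature microRNAs carry no poly(A) tail, and the genotype is therefore unchecked by these values. In the sorted AT2 cells Sftpc stood at 141750 to 155065 TPM in controls and, lower without overlap, at 85303 to 128668 TPM in knockouts. The endothelial marker Pecam1 was at 2.52 to 9.48 TPM there and the fibroblast marker Col1a1 at 0.780 to 5.36 TPM. The club cell marker Scgb1a1 was not low there, at 2818 to 13077 TPM in controls and 2141 to 4821 TPM in knockouts. In organoids Sftpc was at 6935 to 59558 TPM. In lungs at 6 days, knockout 3 stood apart with 8.45% of its TPM in haemoglobin genes, where the 5 other libraries had 0.876% to 4.52%. Log2 fold changes below compare knockouts with controls after 1 is added to each TPM, which makes changes of low genes look smaller, and a gene passed at an adjusted p under 0.05 in limma. Members with under 1 TPM in too many libraries were not tested: Igf1, Igf1r and Igfbp3 in sorted AT2 cells, and Igf1 and Igf2 in organoids. The p-values measure the spread between these libraries only, and in bulk RNA fewer cells of a type and less RNA per cell cannot be told apart.

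In whole lungs the knockouts held more Igf1 and less of 3 binding proteins at both times. In lungs at 6 days 4 of 10 tested members passed, 1 higher and 3 lower, against 6.95% of all genes tested (3.16% higher and 3.79% lower). At 6 months 6 of 10 passed, 1 higher and 5 lower, against 29.8% of all genes (15.9% higher and 13.9% lower), where quantile normalization turned the split from 2260 higher and 1966 lower to 2081 and 2813. In sorted AT2 cells 1 of 7 tested members passed, Igfbp2, which was lower, against a background of 7.85% (6.62% higher and 1.22% lower). The split of that background depended on scaling: 802 genes were higher and 148 lower as deposited, 420 and 204 with median-ratio scaling, and 399 and 214 with quantile normalization. In organoids 2 of 8 passed, Igfbp2 and Igfbp7, both higher, against 0.605% (0.218% higher and 0.387% lower); there 27 genes were higher and 48 lower, and 22 and 25 with quantile normalization. The median log2 fold change of the tested members, beside that of all genes tested, was -0.31 beside 0.08 in AT2 cells, -0.53 beside -0.14 in lungs at 6 days, -0.37 beside -0.00 in lungs at 6 months and -0.18 beside 0.06 in organoids. The shift of -0.14 of all genes in lungs at 6 days became 0.00 with median-ratio scaling, and each change there is read against it.

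**Figure D1:**
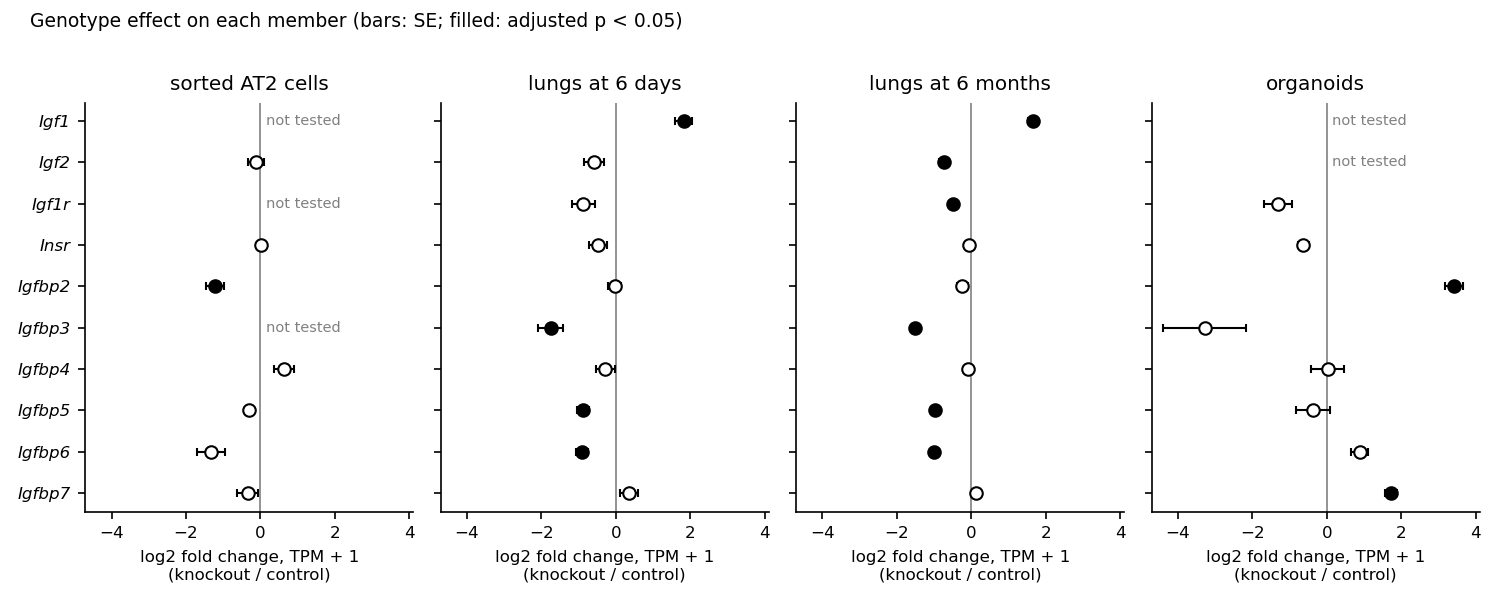
Log2 fold change of TPM + 1 (horizontal axis, knockout over control) for each of the 10 members in the 4 comparisons. Points are limma estimates, bars are their SE, and filled points passed at an adjusted p under 0.05: Igf1 lies to the right and Igfbp3, Igfbp5 and Igfbp6 to the left of 0 in lungs at both times, while Igfbp2 lies left of 0 in sorted AT2 cells and right of 0 in organoids.

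Igf1, the ligand that signals through IGF1R, was the member with the largest rise in lungs. At 6 days the 3 controls stood at 7.66, 11.8 and 9.45 TPM and the 3 knockouts at 44.6, 29.6 and 35.3 TPM. The genotypes did not overlap, and every knockout stood far above every control. The knockout mean was 3.78-fold the control mean, with a log2 fold change of 1.82 ± 0.22 (SE; limma adjusted p = 0.00595). At 6 months the 4 controls were at 4.88, 3.90, 5.08 and 5.66 TPM and the 4 knockouts at 21.005, 19.4, 15.5 and 14.8 TPM. Again no knockout reached down to a control. The means differed 3.62-fold, and the log2 fold change was 1.66 ± 0.13 (SE; limma adjusted p = 4.38e-06). The effect at 6 months differed from that at 6 days by -0.16 ± 0.26 (SE; adjusted p = 0.788), which is within its error. Igf1 passed at both times under every alternative run. Without knockout 3 at 6 days its log2 fold change was 1.83.

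Igf1 transcripts were near 0 in the epithelial samples. Sorted AT2 controls held 0.0145 to 0.198 TPM and knockouts 0.182 to 0.549 TPM, so the groups overlapped and every library was below 1 TPM. Organoid controls were listed at 0, and organoid knockouts at 0.0115 and 0.0202 TPM. Over the 8 groups, the order of mean level ran from lung knockouts at 6 days to lung knockouts at 6 months, lung controls at 6 days and lung controls at 6 months, with no overlap between neighbours. AT2 cells and organoids followed below 1 TPM. The tables were normalized separately, so this order across them is a description. Igf1 lies at chr10:87858265-87937042, plus strand. The gene span of Igf1os on the opposite strand overlaps it, and any reads from shared exons cannot be told apart in these libraries.

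Markers of macrophages moved with Igf1 in lungs. Of 6 lipid-associated macrophage genes, such as the lipid receptor gene Trem2, 5 rose at 6 days and 6 at 6 months, and the summed level went from 1154 to 1318 TPM in controls to 3981 to 9526 TPM in knockouts at 6 days. At 6 months it went from 970.4 to 1031 TPM to 4867 to 7386 TPM. Trem2 itself was at 6.78 to 15.7 TPM in controls and 85.0 to 118.8 TPM in knockouts at 6 days, and at 6.24 to 8.15 and 153.7 to 264.5 TPM at 6 months. Of 8 alveolar macrophage markers 3 rose and 1 fell at 6 days and 7 rose at 6 months, and of 8 interstitial macrophage and monocyte markers 2 and then 6 rose. The complement gene C1qa was at 124.0 to 201.1 TPM in controls and 232.0 to 394.9 TPM in knockouts at 6 days. Their part in the rise of Igf1 was not tested. By root mean square difference over the 8 group means, the genes with profiles nearest to that of Igf1 among 14333 were Ccr1 (0.19), which encodes a chemokine receptor, Clec4a2 (0.30), a C-type lectin gene, and Ccl9 (0.31), a chemokine gene, on the log2 scale.

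Igf2, the ligand of fetal growth, was lower in lungs at 6 months. Its 4 controls stood at 9.98, 14.7, 12.7 and 11.7 TPM and its 4 knockouts at 6.81, 6.61, 8.26 and 6.14 TPM. All knockouts were below all controls. This gave a log2 fold change of -0.73 ± 0.13 (SE; limma adjusted p = 0.00107). At 6 days controls were at 8.35, 7.40 and 8.64 TPM and knockouts at 6.44, 6.57 and 2.94 TPM. These groups did not overlap either, but the difference of -0.59 ± 0.27 (SE) did not pass (adjusted p = 0.219), and without knockout 3 it was -0.28. In sorted AT2 cells Igf2 was low and overlapped between the genotypes, at 1.31 to 2.01 TPM in controls and 0.824 to 1.90 TPM in knockouts, and in organoids it was at 0.0458 to 0.344 TPM in the 4 libraries. The gene spans of Igf2os on the opposite strand and of Gm49394 and Mir483 on the same strand overlap that of Igf2. Overlap of exons was not checked, so whether reads are shared is unknown.

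The 2 ligands moved apart in lungs. The ratio of Igf1 to Igf2 TPM was 0.917 to 1.60 in controls and 4.50 to 12.0 in knockouts at 6 days. At 6 months it was 0.266 to 0.490 in controls and 1.87 to 3.08 in knockouts. At each time every knockout lung held more Igf1 than Igf2 transcript, while all 4 controls at 6 months held less. No test was run on this ratio.

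**Figure D2:**
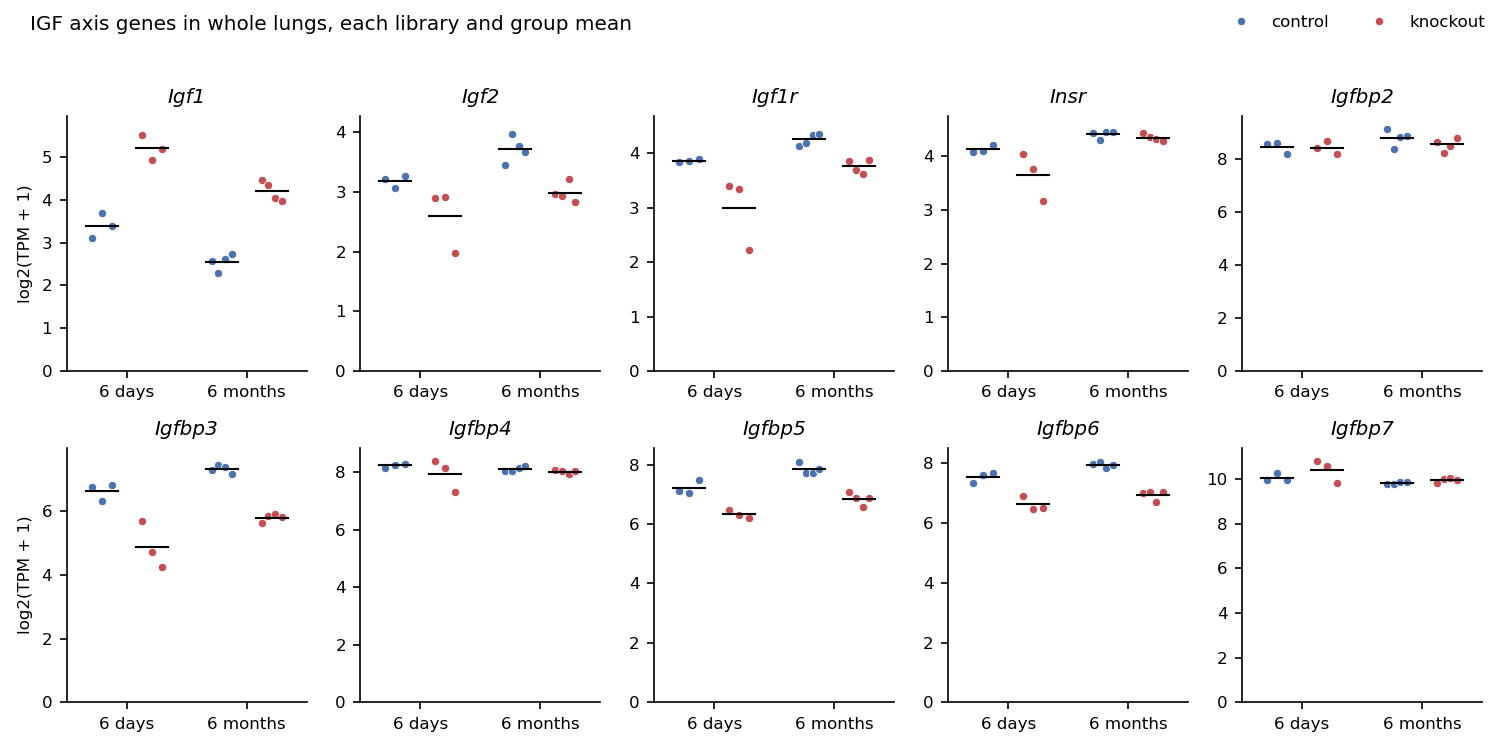
Log2(TPM + 1) of the 10 members in whole lungs (vertical axis) at 6 days (3 libraries per genotype) and 6 months (4 per genotype), with controls in blue, knockouts in red and bars at the group means. Igf1 is higher and Igfbp3, Igfbp5 and Igfbp6 are lower in every knockout than in any control at both times, while Igfbp4 overlaps at both.

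Igf1r, the main IGF receptor, was lower in knockout lungs at 6 months. Controls were at 16.5, 17.4, 19.3 and 19.5 TPM and knockouts at 13.6, 11.9, 11.3 and 13.8 TPM. The groups did not overlap. Igf1r fell by 0.49 ± 0.09 (log2, SE; limma adjusted p = 0.00179). At 6 days the controls lay close together at 13.4, 13.5 and 13.9 TPM and the knockouts at 9.61, 9.17 and 3.66 TPM, with knockout 3 lowest. This difference of -0.87 ± 0.31 (SE) did not pass (adjusted p = 0.131), and without knockout 3 it was -0.49 with an adjusted p of 0.0286.

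Igf1r in sorted AT2 cells was below 1 TPM in all 6 libraries, at 0.598 to 0.822 TPM in controls and 0.645 to 0.781 TPM in knockouts. In organoids it was at 13.2 and 28.5 TPM in controls and 7.38 and 7.27 TPM in knockouts. The organoid groups did not overlap, but the difference of -1.30 ± 0.38 (SE) did not pass in limma (adjusted p = 0.0957). Without control 1 it was -1.83 and without control 2 -0.77. Such a fit leaves 1 control, so its side of the threshold is not read.

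Insr, the insulin receptor, had the most even level of the members, with group means of 10.9 to 20.6 TPM. It stood at 18.5 to 23.2 TPM in AT2 controls and 19.8 to 21.5 TPM in AT2 knockouts, with a log2 fold change of 0.01 ± 0.10 (SE; adjusted p = 0.971). At 6 months lung controls were at 18.7 to 20.96 TPM and knockouts at 18.4 to 20.6 TPM, a difference of -0.06 ± 0.07 (SE; adjusted p = 0.592). At 6 days controls were at 15.9, 16.2 and 17.5 TPM and knockouts at 15.5, 12.5 and 7.94 TPM, which did not overlap and did not pass (-0.48 ± 0.24, SE; adjusted p = 0.246; -0.23 without knockout 3). In organoids controls were at 19.1 and 15.9 TPM and knockouts at 11.5 and 10.3 TPM. This difference of -0.63 ± 0.15 (SE) did not pass (limma adjusted p = 0.0772). Without control 1 or control 2 it was -0.51 or -0.76. Genes on the opposite strand, Gm16180 and Vmn2r-ps88, overlap Insr. The profiles nearest to that of Insr were those of Zfp36l1 (0.10), Zfp467 (0.11) and Frs2 (0.11), the last an adaptor of fibroblast growth factor receptors.

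The balance of the 2 receptors differed between kinds of sample. Insr TPM were 23.5 to 33.5 times Igf1r TPM in sorted AT2 controls and 25.3 to 33.4 times in AT2 knockouts. In lungs the ratio was 1.19 to 1.27 in controls and 1.37 to 2.17 in knockouts at 6 days, and 1.07 to 1.24 and 1.34 to 1.67 at 6 months. In organoids it was 0.557 to 1.44 and 1.41 to 1.56. A ratio within a library does not depend on the scaling between tables, but it does not say which of the 2 genes moved, and it was not tested. Of the 3 members with an 8mer, Igf1 passed as higher in lungs at both times, and Igf1r and Insr passed as higher in 0 of their tests.

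Igfbp3, Igfbp5 and Igfbp6 were lower in knockout lungs at both times. IGFBP3 and IGFBP5 can carry IGFs in large complexes with the acid-labile subunit, and IGFBP6 prefers IGF2. The groups of all 3 did not overlap at either time. Over all members 7 of 10 did not overlap at 6 days, 1 higher and 6 lower, against 36.2% of all genes tested, and 6 of 10 at 6 months, 1 higher and 5 lower, against 30.6%.

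Igfbp3 showed the largest fall of the members in lungs. At 6 days controls were at 106.0, 79.1 and 112.4 TPM and knockouts at 49.9, 25.2 and 18.003 TPM. The highest knockout was below the lowest control, and knockouts spread more widely. The log2 fold change was -1.75 ± 0.34 (SE; limma adjusted p = 0.0225), and it lost the threshold without control 1 (0.114), control 3 (0.106) or knockout 2 (0.0818). At 6 months controls were at 153.7, 173.5, 164.8 and 141.2 TPM and knockouts at 48.1, 56.2, 58.8 and 54.7 TPM. The groups lay far apart, with knockouts at 0.344 of the control mean. The log2 fold change there was -1.52 ± 0.08 (SE; limma adjusted p = 1.3e-07). The profiles nearest to that of Igfbp3 were those of Gabrp (0.77), Tnfrsf19 (0.78) and Lamb1 (0.82).

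Igfbp5 at 6 days was at 136.9, 130.4 and 179.5 TPM in controls and 88.6, 77.2 and 73.2 TPM in knockouts. It fell by 0.88 ± 0.17 (log2, SE; limma adjusted p = 0.0207) and did not pass without control 1 (0.0955), control 3 (0.110) or knockout 2 (0.0769). At 6 months controls were at 267.9, 206.8, 210.0 and 227.9 TPM and knockouts at 133.7, 115.7, 95.2 and 117.6 TPM. Again each knockout was below each control, and Igfbp5 fell by 0.98 ± 0.11 (log2, SE; adjusted p = 3.99e-05). Its nearest profiles were those of Il17rd (0.19), an inhibitor of fibroblast growth factor signalling, Mpdz (0.21), a scaffold protein gene, and Kank4 (0.23). Igfbp5 is the one binding protein with a let-7 match, the 7mer shown above, and it did not pass as higher in any comparison.

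Igfbp6 at 6 days was at 160.7, 191.7 and 201.0 TPM in controls and 118.6, 86.1 and 88.9 TPM in knockouts. The log2 fold change was -0.92 ± 0.17 (SE; limma adjusted p = 0.0201), and it did not pass without control 1 (0.0774), control 2 (0.0645), control 3 (0.116) or knockout 2 (0.0781). At 6 months controls were at 247.5, 259.6, 227.1 and 243.9 TPM and knockouts at 126.7, 128.4, 103.1 and 130.6 TPM. Knockouts stood at 0.500 of the control mean, and the groups were well separated. The log2 fold change was -0.999 ± 0.077 (SE; limma adjusted p = 3.11e-06). The profiles nearest to that of Igfbp6 were those of Cyp2b10 (0.55), Mgll (0.65) and Sec14l3 (0.72). Igfbp6 was also lower in each sorted AT2 knockout than in each AT2 control, at 89.5, 102.1 and 65.9 TPM in controls and 18.03, 61.4 and 32.3 TPM in knockouts. That difference of -1.33 ± 0.38 (SE) missed the threshold (adjusted p = 0.0705), with -1.76 (0.0153) without knockout 2 but -0.91 (0.102) without knockout 1 and up to 0.208 without any other 1 library.

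None of these 3 effects differed between the times beyond its error. The 6-month effect minus the 6-day effect was 0.23 ± 0.35 for Igfbp3, -0.09 ± 0.20 for Igfbp5 and -0.08 ± 0.19 for Igfbp6 (SE; adjusted p = 0.766, 0.836 and 0.845). Of the 10 members 0 passed in this difference, against 2.73% of all genes tested in both tables, and 0 had an unadjusted p under 0.05; the lowest was 0.121 for Insr.

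Most listed mesenchymal, endothelial and mesothelial markers fell beside these binding proteins at 6 months, and few passed at 6 days. Of 10 fibroblast markers 3 fell at 6 days and 6 fell and 1 rose at 6 months. Their summed level was 4244 to 4770 TPM in controls and 1883 to 4328 TPM in knockouts at 6 days, and 4803 to 5232 and 3136 to 3669 TPM at 6 months. Col1a1, the collagen gene that defines the list, overlapped at both times, at 180.7 to 199.4 and 93.3 to 491.8 TPM at 6 days and at 94.1 to 111.2 and 99.4 to 121.3 TPM at 6 months. Of 9 smooth muscle and pericyte markers 2 fell at 6 days and 6 at 6 months, and of 10 endothelial markers 0 and 8. Pecam1 was at 543.1 to 580.8 TPM in controls and 186.2 to 524.6 TPM in knockouts at 6 days, and at 527.0 to 562.2 and 365.1 to 442.3 TPM at 6 months. Of 6 mesothelial markers 1 rose and 1 fell at 6 days and 6 fell at 6 months, where their sum was 281.6 to 357.9 TPM in controls and 179.3 to 213.2 TPM in knockouts. Of 10 AT1 markers 1 rose at 6 days, and 1 rose and 4 fell at 6 months. All 3 club cell markers fell at both times, and AT2 markers fell in 2 of 8 at 6 days and rose in 5 of 8 at 6 months. Their part in the lower binding protein levels was not tested.

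Igfbp2, which binds IGFs and also attaches to cell surfaces, moved in opposite directions in the 2 epithelial samples. In sorted AT2 cells controls were at 16.7, 27.0 and 21.5 TPM and knockouts at 8.06, 12.3 and 6.27 TPM. The groups did not overlap; 3 of the 7 tested members were lower without overlap there (Igfbp2, Igfbp5 and Igfbp6) and 0 higher, against 33.7% of all genes tested. Igfbp2 fell by 1.23 ± 0.24 (log2, SE; limma adjusted p = 0.0266). The call was lost without control 2 (0.105), control 3 (0.0757), knockout 1 (0.0590) or knockout 3 (0.0755), and with no filter on low values (0.0652), while the difference kept its direction.

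In organoids Igfbp2 controls were at 1.27 and 1.00 TPM and knockouts at 26.9 and 17.6 TPM. Knockouts stood 19.6-fold above controls, with a log2 fold change of 3.42 ± 0.25 (SE; limma adjusted p = 0.0317). Without knockout 1 or knockout 2 the log2 fold change was 3.12 or 3.71. Such a fit leaves 1 knockout, so its side of the threshold is not read. With no filter the limma adjusted p was 0.0748. The organoid effect exceeded the effect in sorted AT2 cells by 4.64 ± 0.34 (log2, SE; adjusted p = 6.76e-05). This difference passed under every alternative that kept both organoid libraries of each genotype. In whole lungs Igfbp2 was high and overlapped between the genotypes at both times, at 294.9 to 391.2 and 290.2 to 416.5 TPM at 6 days and at 338.6 to 560.0 and 304.5 to 451.4 TPM at 6 months. At 6 months its difference of -0.25 did not pass (adjusted p = 0.243), with -0.39 (0.0480) without control 2. Its difference between the lung effect at 6 days and the AT2 effect, 1.20 ± 0.30 (SE), missed the threshold (adjusted p = 0.0669). In that difference 0 of 7 members passed, against 1.06% of all genes. Unadjusted p was 0.00109 for Igfbp2, 0.0271 for Igfbp4 and 0.0108 for Igfbp5 in the same test. The share of all genes with an unadjusted p under 0.05 was not computed, so these are not read as an excess. The Igfbp2 difference passed without lung knockout 3 (0.0260), AT2 control 1 (0.0438) or AT2 knockout 2 (0.0268). The profiles nearest to that of Igfbp2 were those of Akap2 (0.49), Lhfp (0.68) and Mxra8 (0.75). The AT1 marker Hopx moved in the same directions as Igfbp2. It was at 80.6 to 127.4 TPM in AT2 controls and 54.2 to 70.6 TPM in AT2 knockouts. In organoids it was at 129.7 to 136.9 and 190.8 to 295.9 TPM. Ager, also an AT1 marker, overlapped in AT2 cells (2462 to 2742 and 1617 to 3043 TPM). In organoids it was at 201.9 to 548.1 and 789.2 to 1152 TPM. The part of AT1 cells in the Igfbp2 differences was not tested.

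Igfbp7, which binds IGFs weakly and is laid down around vessels and in the matrix, was the most abundant binding protein transcript in every group but the organoid controls. In organoids controls were at 31.5 and 38.6 TPM and knockouts at 128.1 and 108.0 TPM. The means differed 3.37-fold, and the log2 fold change was 1.72 ± 0.16 (SE; limma adjusted p = 0.0478). Without knockout 1 or knockout 2 the log2 fold change was 1.60 or 1.85. The call was lost with median-ratio scaling (limma adjusted p = 0.0554), quantile normalization (0.0655) or no filter (0.0761). Igfbp7 overlapped in sorted AT2 cells, at 313.9, 336.3 and 261.1 TPM in controls and 144.2, 339.4 and 277.6 TPM in knockouts. The organoid effect exceeded the AT2 effect by 2.06 ± 0.32 (log2, SE). It passed in the test of that difference (adjusted p = 0.00432). Without organoid knockout 1 the value was 1.94. That fit leaves 1 organoid knockout, so its side of the threshold is not read.

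Lung levels of Igfbp7 overlapped at both times. It was at 979.7, 1224 and 1001 TPM in controls and 1806, 1514 and 916.9 TPM in knockouts at 6 days, where the difference of 0.35 ± 0.24 (SE) did not pass (adjusted p = 0.381); without knockout 3 it was 0.64 and passed (0.0303), and without knockout 1 it was 0.15 (0.650). At 6 months controls were at 888.8 to 940.8 TPM and knockouts at 909.9 to 1045 TPM (0.12 ± 0.05, SE; adjusted p = 0.125; 0.16 with an adjusted p of 0.0411 without knockout 1). The profiles nearest to that of Igfbp7 were those of Wipf1 (0.32), Col4a3 (0.33) and Cryab (0.34). The gene spans of Polr2b and Gm34648 on the opposite strand overlap that of Igfbp7. Overlap of exons was not checked, so whether reads are shared is unknown.

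Organoid Igfbp6 was at 0.303 and 0.124 TPM in controls and 1.43 and 1.04 TPM in knockouts. It entered the test only through the knockouts, since 0 controls and 2 knockouts reached 1 TPM, so a difference was fixed by the filter. The difference of 0.88 ± 0.23 (SE) did not pass (limma adjusted p = 0.0841). For the same reason its difference from the AT2 effect is not read here. Of the other 5 members tested in both kinds, Igfbp2 and Igfbp7 passed in the difference between organoids and AT2 cells, against 9.29% of all genes. On simulated data this difference test made more false calls than its threshold allows, and both differences that involve AT2 cells share the AT2 libraries.

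Igfbp3 in organoids was at 44.7 and 396.4 TPM in controls and 18.04 and 9.06 TPM in knockouts. The groups did not overlap, but the controls differed from each other more than the lower control differed from the knockouts. The log2 fold change of -3.28 ± 1.11 (SE) did not pass (adjusted p = 0.118). Its size rested on single controls, at -4.84 without control 1 and -1.72 without control 2. Over all members 8 of 10 did not overlap between the organoid genotypes, 5 higher and 3 lower; among the 8 tested members it was 6, 3 higher and 3 lower, against 71.7% of all genes tested. With 2 libraries per genotype, separated groups are thus common. Sftpc also separated the organoid genotypes, at 6935 and 28199 TPM in controls and at 51384 to 59558 TPM in knockouts. Of 8 AT2 markers 7 were higher and 0 lower without overlap in organoid knockouts, and of 10 AT1 markers 7 and 1. In both lists 0 passed. Their median log2 fold changes were 1.03 (AT2 markers) and 0.73 (AT1 markers), beside 0.06 for all genes tested. The part of these markers' cells in the differences was not tested.

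Igfbp4, an inhibitor of IGF action that the protease PAPPA cuts, overlapped between genotypes in all 4 kinds of sample and passed in 0 of 4 tests (unadjusted p 0.0532 in AT2 cells, its lowest). With quantile normalization it passed as lower in lungs at 6 months, at -0.27 (adjusted p = 0.00184) against -0.09 as deposited. Lung levels were 284.1 to 315.9 TPM in controls and 160.1 to 334.7 TPM in knockouts at 6 days, and 264.0 to 297.1 and 242.9 to 272.2 TPM at 6 months. AT2 cells held 1.55 to 4.86 and 4.16 to 5.40 TPM, with an adjusted p of 0.0491 without control 1 against 0.189 with it. Organoids held 46.6 to 90.1 and 48.5 to 89.2 TPM. Igfbp5 likewise overlapped in organoids, at 20.9 and 36.9 TPM in controls and 30.8 and 14.3 TPM in knockouts. In sorted AT2 cells it was at 14.9 to 18.1 TPM in controls and 11.9 to 13.5 TPM in knockouts, a difference of -0.31 ± 0.11 (SE) that did not pass (adjusted p = 0.110).

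**Figure D3:**
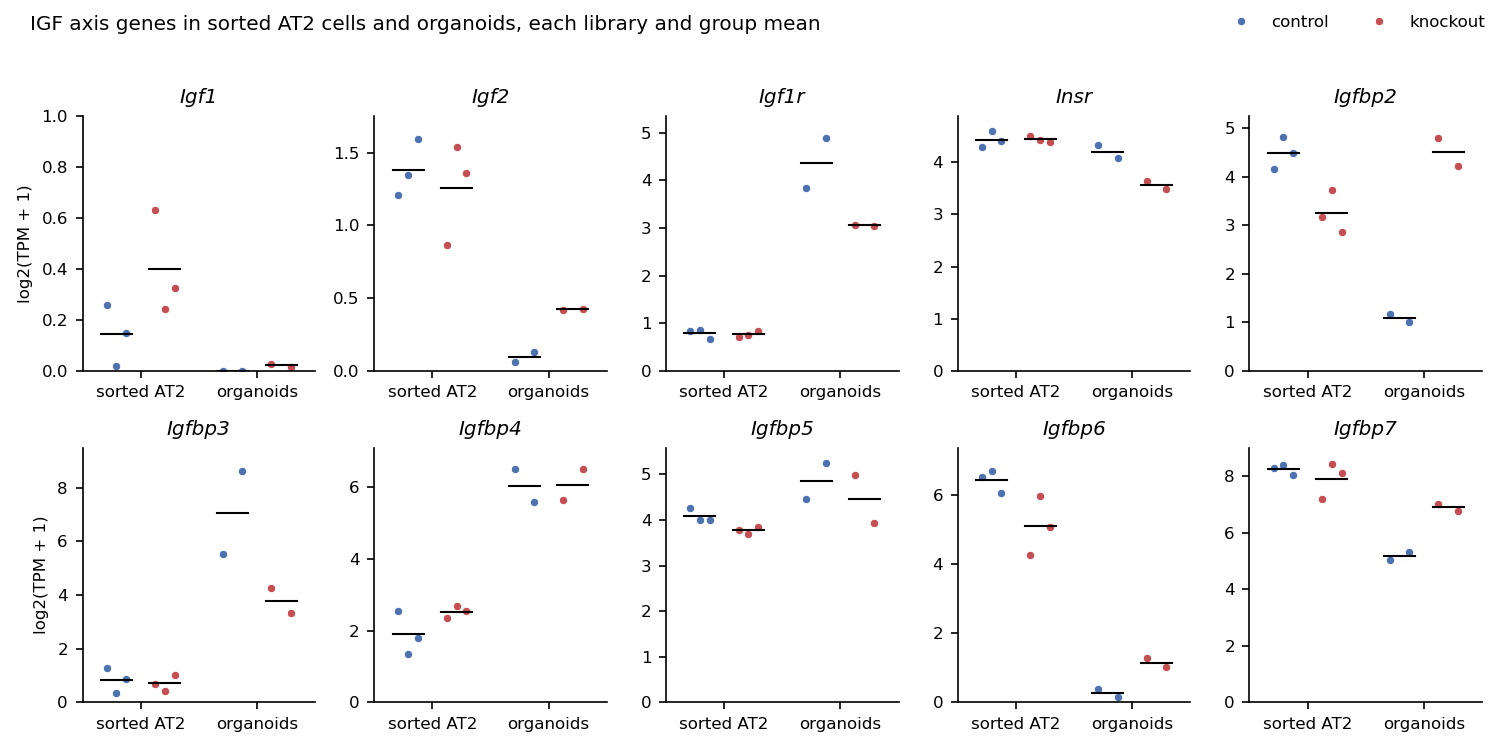
Log2(TPM + 1) of the 10 members (vertical axis) in sorted AT2 cells (3 libraries per genotype) and organoids (2 per genotype), with controls in blue, knockouts in red and bars at the group means; the vertical scales differ between panels. Igfbp2 knockouts lie below controls in AT2 cells and above them in organoids, and Igf1 stays below 1 TPM in all 10 libraries.

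Some markers of other cells moved as well in the sorted AT2 libraries. Of 8 alveolar macrophage markers 3 rose, with a summed level of 33.1 to 64.4 TPM in controls and 137.5 to 261.7 TPM in knockouts, and Marco went from 0.248 to 0.573 TPM in controls to 5.71 to 16.4 TPM in knockouts. Of 6 lipid-associated macrophage genes 4 rose, though their sum did not rise (1796 to 2278 against 1679 to 1894 TPM), and 2 of 5 erythrocyte genes rose. Of the 7 fibroblast, 3 smooth muscle and pericyte and 8 endothelial markers tested there, 0 passed. Positive log2 fold changes were found for 7, 3 and 4 of them. Of 10 AT1 markers 1 rose and 1 fell, and 8 had a negative log2 fold change. All 3 club cell markers had a negative log2 fold change and 0 passed. Their summed level was 3030 to 13681 TPM in controls and 2310 to 5100 TPM in knockouts. C1qa was at 0.636 to 1.66 TPM in controls and 1.90 to 2.09 TPM in knockouts, higher without overlap. It belongs to the 8 interstitial macrophage and monocyte markers, of which 5 were tested. All 5 had a positive log2 fold change and 0 passed. The summed level of that list was 7.35 to 13.3 TPM in controls and 13.1 to 20.1 TPM in knockouts. The part of these cells in the AT2 results was not tested.

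The make-up of the binding proteins shifted towards Igfbp7 in knockout lungs. As a share of the summed Igfbp2 to Igfbp7 TPM, Igfbp7 was 49.4% ± 2.86 (SD, n = 3) in controls and 62.7% ± 3.36 in knockouts at 6 days. At 6 months it was 40.2% ± 1.95 (SD, n = 4) and 51.6% ± 3.50. Over the same groups Igfbp3 went from 4.64% to 1.34% at 6 days and from 6.98% to 2.83% at 6 months. Igfbp2 kept close to its share, with 16.4% and 16.2% at 6 days and 19.9% and 19.7% at 6 months. The sum itself was 2046 to 2324 TPM in controls and 1547 to 2738 TPM in knockouts at 6 days, and 2133 to 2383 and 1897 to 1999 TPM at 6 months.

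Igfbp7 in sorted AT2 cells made up 70.5% ± 0.720 (SD, n = 3) of the sum in controls and 79.4% ± 3.04 in knockouts, and Igfbp6 19.8% ± 1.64 and 11.2% ± 2.68. The shares of Igfbp7 did not overlap, although its own level did. The organoid controls differed: Igfbp4 led in control 1 with 47.7%, beside 23.7% for Igfbp3, and Igfbp3 led in control 2 with 76.3%, beside 8.96% for Igfbp4. In organoid knockouts Igfbp7 led with 45.2% and 50.5%. Shares sum to a fixed total, so a fall of 1 gene raises the others, and no test was run on them.

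**Figure D4:**
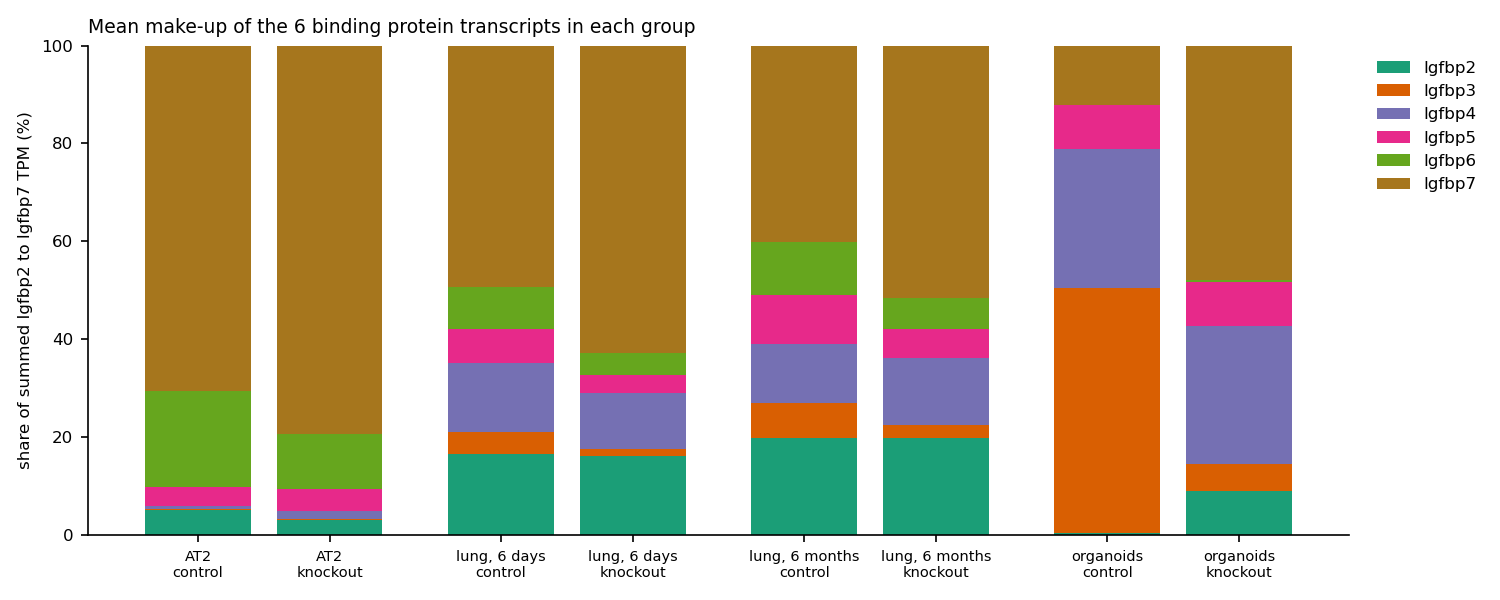
Mean share of each of the 6 binding protein genes in their summed TPM (vertical axis, percent) for the 8 groups of 2 to 4 libraries. Igfbp7 takes the largest mean share in every group except the organoid controls, where Igfbp3 does through control 2, and its share is larger in knockouts than in controls of each kind.

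The genes around the members were read from a list of 41 further IGF and insulin pathway genes: the other binding proteins and proteases, the adaptors, the PI3K, AKT and mTOR kinases, FOXO factors and Igf2 mRNA-binding proteins. Of 33 tested in lungs at 6 months, 4 were higher and 6 lower, which is near the background of 29.8%. Grb14, an adaptor that restrains the insulin receptor, fell from a mean of 47.1 to 31.9 TPM (log2 fold change -0.54, adjusted p = 0.000381). Grb2, the adaptor that links receptors to RAS, rose from 80.8 to 104.3 TPM (0.37, adjusted p = 0.00113). Igf2r, which clears IGF2 and whose 3′ UTR holds a let-7 8mer, rose from 29.9 to 39.1 TPM (0.37, limma adjusted p = 0.00285). The other tested pathway genes with an 8mer, Irs2, Pik3cb, Rictor and Igf2bp2, did not pass there. Foxo4 fell from 34.5 to 28.5 TPM (-0.27, limma adjusted p = 0.00683).

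Of 34 pathway genes tested in lungs at 6 days, 0 were higher and 2 lower, against 6.95% of all genes tested (3.16% higher and 3.79% lower). Foxo4, a forkhead factor that AKT keeps out of the nucleus, fell from 30.9 to 15.3 TPM (-0.996, adjusted p = 0.0314), and Grb14 from 44.5 to 24.1 TPM (-0.86, adjusted p = 0.0322). Both calls were lost without any 1 of the 3 controls or without knockout 2, with adjusted p up to 0.157 and 0.178. The median of the 34 genes was -0.32, beside -0.14 for all genes.

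Of 30 pathway genes tested in sorted AT2 cells, 2 were higher and 2 lower, against 7.85% of all genes tested (6.62% higher and 1.22% lower). Igf2bp2, which binds Igf2 mRNA and whose 3′ UTR holds a let-7 8mer, rose from 3.13 to 6.04 TPM (0.75, adjusted p = 0.0292). The other 4 tested pathway genes with an 8mer, named after their values were seen, did not pass. Irs2 was at 63.0 to 112.4 TPM in controls and 50.6 to 62.5 TPM in knockouts, lower without overlap (-0.64 ± 0.19, SE; adjusted p = 0.0834). Igf2r, Pik3cb and Rictor overlapped, with log2 fold changes of 0.03, 0.04 and 0.04. Akt1 rose from 108.5 to 142.8 TPM (0.39, adjusted p = 0.0337). Foxo4 fell from 20.5 to 14.6 TPM (-0.47, adjusted p = 0.0391) and Foxo3 from 64.5 to 40.0 TPM (-0.68, adjusted p = 0.0413). Each of these 4 calls was lost in at least 4 of the 6 fits that left out 1 library, with adjusted p up to 0.106 for Igf2bp2, 0.107 for Akt1, 0.138 for Foxo4 and 0.128 for Foxo3.

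In organoids 1 of 34 tested pathway genes passed, against 0.605% of all genes tested. Stc1, stanniocalcin 1, which inhibits the protease PAPPA, fell from 64.7 to 11.9 TPM (-2.36, limma adjusted p = 0.0317). Without knockout 1 or knockout 2 its log2 fold change was -2.55 or -2.18. In all 4 kinds of sample most of the listed pathway genes did not pass.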

How the data were processed

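Gene-level TPM were computed by the authors and deposited in 4 tables, 1 per kind of sample. Per the labels' protocols the libraries were poly(A)-selected TruSeq libraries that do not keep the strand. Per the submitters' processing notes the genome build was GRCm38. No aligner, quantification tool or annotation is given in the sources used here. Of the rows in each table, 2 that repeated a symbol were left out. TPM keep no depth, so no counting error can be given.

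Tables were fitted one by one with limma 3.58.1 (R 4.3.3): log2(TPM + 1) was modelled on genotype alone, with a variance trend, and two-sided p-values were adjusted by Benjamini-Hochberg over all genes tested. Tested genes reached 1 TPM in a number of libraries no lower than the size of the smaller group. The 3 differences between comparisons subtracted within-table effects, each with its own spread, and were adjusted over genes tested in both tables. All fits were tested on simulated data. The 10 members and all lists, of pathway genes and markers, were chosen with earlier results of these data known. All members are given. Of the pathway list up to 4 genes with the smallest adjusted p per comparison are named, and of each marker list its defining genes. Up to 3 nearest profiles are named for Igf1, Insr, Igfbp2, Igfbp3, Igfbp5, Igfbp6 and Igfbp7, and none for the other members. They were found over the 8 group means of log2(TPM + 1), centred on each gene. Alternatives were quantile normalization, median-ratio scaling, library weights, no variance trend, a pseudocount of 0.1, a filter on low genes at 5 TPM or none at all, a shared spread for the differences, the replicate number as a block, merged 3′ UTRs and leaving out each library. Figures used matplotlib 3.10.9.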

Additional observations from a re-analysis of the deposited data

Results flagged for a closer look

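The effect of the knockout differed between organoids and sorted AT2 cells, by a test of the difference on the log2 scale. It was higher in organoids by 4.64 for Igfbp2 and by 2.06 for Igfbp7. Without organoid knockout 1 the Igfbp7 value was 1.94. The value for Igfbp6 was 2.20, but it entered the organoid test only through the knockouts, so this is not read as a difference. On simulated data this test made more false calls than its threshold allows. Among the 4 knockout lungs at 6 months, Igfbp6 in knockout 3 was lower than in the other knockouts: its gap to the nearest of them was 0.857 of the whole range of the group. Of 20 groups of 4 libraries this was the only one to stand out so, and chance gives about 1 in 20.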

How the results depend on the processing

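Of 1370 values recomputed under an alternative, 1152 kept direction, side of the threshold or, for counts, stayed within 1.5 times. Of the rest, 68 lost and 37 gained the threshold, 35 turned direction and 78 counts moved further; 678 of the 1370 left out a library. The cause of the changes was not tested. In lungs at 6 months the count of members passing was 6 to 7 and in the 3 differences between comparisons it was 0 (6 months and 6 days), 0 to 1 (6 days and AT2 cells) and 1 to 4 (organoids and AT2 cells) over the fits without 1 library. Over the same fits it was 0 to 2 for AT2 cells, 1 to 6 for 6-day lungs and 0 to 6 for organoids. The counts of all genes passing ranged from 190 to 1220 (AT2 cells), 99 to 2044 (6-day lungs) and 0 to 6764 (organoids), and those of pathway genes from 0 to 5, 0 to 6 and 0 to 17. Fits that leave 1 organoid library in an arm assume that it varies like the other arm. Which calls they lose or gain is therefore not read as a trait of single genes. With no filter, 0 members, 370 genes and 1 pathway gene passed in AT2 cells, and 0 members, 0 genes and 0 pathway genes in organoids (limma; 2 organoid members at an adjusted p of 0.0748 and 0.0761). With median-ratio scaling the counts were 624 genes (AT2 cells), 1798 genes and 4 pathway genes (6-day lungs), and 1 member in organoids. With quantile normalization they were 613 genes and 2 pathway genes, 1886 genes and 4 pathway genes, and 1 member and 47 genes. Without a variance trend 1 pathway gene passed in AT2 cells, and 183 genes and 3 pathway genes in organoids. With library weights 9 members, 8395 genes and 26 pathway genes passed in lungs at 6 days, 659 genes and 5 pathway genes in organoids, 5 members in the difference between the 2 lung times and 3 in that between lungs at 6 days and AT2 cells. In the last difference no filter or median-ratio scaling gave 1 member.

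Directions turned only for values that did not pass in the reported fits. With median-ratio scaling Insr in AT2 cells was -0.0745, Igfbp2 in lungs at 6 days 0.1287 and Igfbp4 in organoids -0.0078. With quantile normalization Insr in AT2 cells was -0.0863, Igfbp7 in lungs at 6 months -0.0967 and Igfbp4 in organoids -0.103. With library weights Insr in AT2 cells was -0.0148 and Igfbp2 in lungs at 6 days 0.2652, and the differences of the 6-month from the 6-day lung effect were 0.0661 for Igf1, -0.0031 for Igfbp4, 0.0038 for Igfbp5 and 0.0952 for Igfbp6. Leaving out 1 library gave, in AT2 cells, -0.269 to 0.0652 for Igf2, -0.5913 to 0.0232 for Igfbp7 and -0.0619 to 0.092 for Insr. In lungs at 6 days it gave -0.164 to 0.0959 for Igfbp2 and -0.5014 to 0.0283 for Igfbp4, and in organoids -0.4469 to 0.4899 for Igfbp4 and -0.907 to 0.1447 for Igfbp5. For the difference between the lung times it gave -0.0035 to 0.5903 for Igf1r, -0.4525 to 0.0185 for Igf2, -0.0819 to 0.6285 for Igfbp3, -0.1211 to 0.4086 for Igfbp4 and -0.1674 to 0.061 for Igfbp6. For the differences from AT2 cells it gave -0.0082 to 0.8479 for Igfbp6 (lungs at 6 days) and -0.5995 to 0.4522 for Igfbp5 (organoids).

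With the replicate number as a replicate block, 2 members passed in AT2 cells (Igfbp6 at an adjusted p of 0.0400 joined Igfbp2), 1 pathway gene in lungs at 6 days, 399 genes in organoids and 1 member in the difference between lungs at 6 days and AT2 cells. Igfbp2 in lungs at 6 months passed with it (0.0230). The numbers did not pair the libraries in any table by the rule that every same-numbered pair correlate above 0.1: the lowest values were -0.173 for AT2 cells, -0.154 and 0.0803 for lungs at 6 days and 6 months, and -0.0737 for organoids. In lungs at 6 months each library correlated best with its own number, a hint from the data and not from the design.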
